A study of Homo sapiens with 24 samples.

Results

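LTR10 is a group of 8 subfamilies of long terminal repeats (LTR10A, LTR10B, LTR10B1, LTR10C, LTR10D, LTR10E, LTR10F and LTR10G) that endogenous retroviruses of the HERV-I family left in the human genome. All repeat loci of the deposited repeat table whose name starts with LTR10 were taken, 2201 of the 4494509 repeat loci kept from that table. Of these, 939 overlapped a gene body by at least 1 base and 1262 lay outside gene bodies, and both classes were kept apart. They were chosen by their summed RPKM times length in HepG2, where LTR10B1 was higher and LTR10E lower with decitabine than with vehicle. These HepG2 decitabine and vehicle values are therefore given as a description, with no test.

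Total RNA was sequenced from 3 wildtype human hepatocellular carcinoma lines obtained from ATCC, HepG2, SNU398 and SNU475. Each line received the vehicle DPBS (a phosphate-buffered saline), decitabine (5-Aza-CdR, which blocks DNA methyltransferases; 100 nM each day), GSK-126 (which blocks EZH2, the enzyme that methylates histone H3 at repressed genes; 500 nM each day), or both together, here called the combination. Dosing lasted 3 days in every line, and RNA was taken at day 14 from HepG2 and SNU398 but at day 21 from SNU475. Each of the 12 groups had 2 libraries, A and B, and because their origin from separate cultures is not given, p-values measure the spread between libraries. All 10 hepatocyte markers, among them albumin (ALB), were at 1 RPKM or more on average in HepG2, against 5 in SNU398 and 7 in SNU475, where their summed level was 0.773 to 82.6 RPKM per library against 6886 to 12270 RPKM in HepG2. The summed level of 7 mesenchymal markers was 3.14 to 17.7 RPKM in HepG2 and 495.4 to 712.5 RPKM in the other lines, and none of 3 endothelial markers reached 1 RPKM in any line. Of 5 leukocyte markers, LYZ alone reached 1 RPKM, and only in HepG2, where the summed level of the list was 150.7 to 411.1 RPKM and PTPRC and CD3E were near 0.

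An LTR carries the promoter and polyadenylation signal of a provirus, and most LTRs in the genome are solitary, the internal viral genes having been lost by recombination. LTR10A and LTR10F copies are known for acting as enhancers bound by AP-1 factors, and an LTR10A copy for starting transcripts of NOS3, the endothelial nitric oxide synthase. Such elements are kept silent in most somatic cells by DNA methylation and by repressive histone marks laid down through KRAB zinc finger proteins and their partner TRIM28.

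A few of the loci overlapped an annotated gene start. One of them was an LTR10E copy at chr2:119710416-119710975 (hg19), inside MARCO, the gene of a macrophage scavenger receptor. The antisense gene RP11-77A13.1 (ENSG00000259094, chr2:119706882-119710559, minus strand) starts in this copy, and its opening 144 genomic bases lie in the LTR. The opening 144 bases of its transcript were taken to be the same bases. That holds if its opening exon is at least as long, which was not checked. These transcript bases are shown because the transcript moved with its LTRs in the results below. No letter is in capitals because the whole run was taken as LTR sequence (5′ to 3′, from the GENCODE v29 transcript).
RP11-77A13.1, bases in LTR10E: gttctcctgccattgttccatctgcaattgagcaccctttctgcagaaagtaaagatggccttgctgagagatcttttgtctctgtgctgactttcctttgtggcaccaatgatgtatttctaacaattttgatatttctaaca

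Levels are given in RPM, reads per 1e6 counted reads, the deposited RPKM value times the length of the locus in kb. The libraries held 32600000 to 60370000 counted reads, fewest in the HepG2 combination. LTR10 loci took 726 to 1498 reads per library, or 14.7 to 34.2 RPM in all. At least 1 read in the 24 libraries fell on 851 loci (498 inside genes and 353 outside), and at least 24 reads on 154 (120 inside and 34 outside). Of 24149 LTR10 reads, 19974 lay inside gene bodies, where reads of the element and of unspliced host RNA cannot be told apart. Only 14 loci, 12 of them inside genes, passed the minimum of 0.5 RPM in at least 2 libraries and were tested singly. The LTR10B1 locus in CEP85L was among those just inside this minimum, with 0.668 RPM in its next-to-highest library, and an LTR10B locus in C19orf82 at chr19:9745152-9745485 was just outside, with 0.493 RPM.

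The subfamilies differed in size, structure and in how far a single copy carried their signal. LTR10C (518 loci) and LTR10F (447) were the largest, and LTR10B (79) the smallest. Median lengths ran from 319 bases in LTR10B1 to 576 in LTR10C. A HERV-I internal part lay within 1000 bases of 542 loci (24.6%), most often for LTR10G (52.1%) and LTR10B1 (45.3%) and least often for LTR10C (8.5%). Joined into elements, the internal parts and their LTRs made 294 proviruses or parts of them, 170 with LTR10 at both ends. LTR10F was mostly paired with HERVIP10FH (70 elements), and LTR10B1 with HERVIP10F (43 elements) and HERVI (25 elements). In LTR10A, the copy in FOXRED2 alone made 71.3% of the subfamily's summed RPM over all libraries, whereas the leading copy of LTR10C made 8.4%. The leading copies of LTR10B, LTR10D, LTR10G, LTR10F, LTR10B1 and LTR10E made 48.8%, 44.7%, 35.4%, 23.6%, 20.1% and 18.8%. A subfamily sum was thus often the level of 1 copy.

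Inside genes, LTR10B1 was higher in the HepG2 libraries given decitabine. Its sum in libraries A and B was 0.657 and 0.46 RPM with DPBS and 0.548 and 0.896 RPM with GSK-126. It was 3.1 and 3.65 RPM with decitabine and 4.69 and 4.13 RPM with the combination. The groups with decitabine did not overlap those without it. How many of all repeat subfamilies separated in this way was not counted. LTR10G, too low to be tested, was at 0.262 to 0.548 RPM with decitabine or the combination and 0.188 to 0.252 RPM without, ranges that almost touch. Between the combination and GSK-126, in libraries that did not choose the members, LTR10B1 rose by 2.02 on the log2(RPM + 0.5) scale (SE 0.14, limma adjusted p = 1.23e-14). In bulk RNA, a change in the number of cells that carry a transcript and a change in its amount per cell cannot be told apart.

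That comparison moved most repeats in HepG2, so the members have to be read against the whole table. Of 784 repeat subfamilies summed inside genes, 77.4% were called at an adjusted p below 0.05, with a median log2 change of -0.42. LTR10B1 rose, 5 of the 7 LTR10 subfamilies that could be tested fell, and the median over the 7 was -0.35, close to that of all subfamilies. LTR10B fell by 1.07 on the log2 scale (SE 0.14, adjusted p = 3.35e-08), LTR10E by 0.59 (SE 0.13, adjusted p = 0.000234) and LTR10C by 0.57 (SE 0.11, adjusted p = 4.48e-05). LTR10D (log2 change -0.35, adjusted p = 0.0203) and LTR10F (log2 change -0.34, adjusted p = 0.043) passed by less, and each call was lost without combination library B. LTR10D was also lost without GSK-126 library A, and LTR10F without GSK-126 library B, with no minimum and in a fit of the 8 HepG2 libraries. Outside genes, 61% of 585 subfamilies were called, and LTR10E, the only LTR10 subfamily abundant enough to be tested there, was not (log2 change -0.27, adjusted p = 0.0974; 0 LTR10 subfamilies at an unadjusted p below 0.05 with limma).

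**Figure D1:**
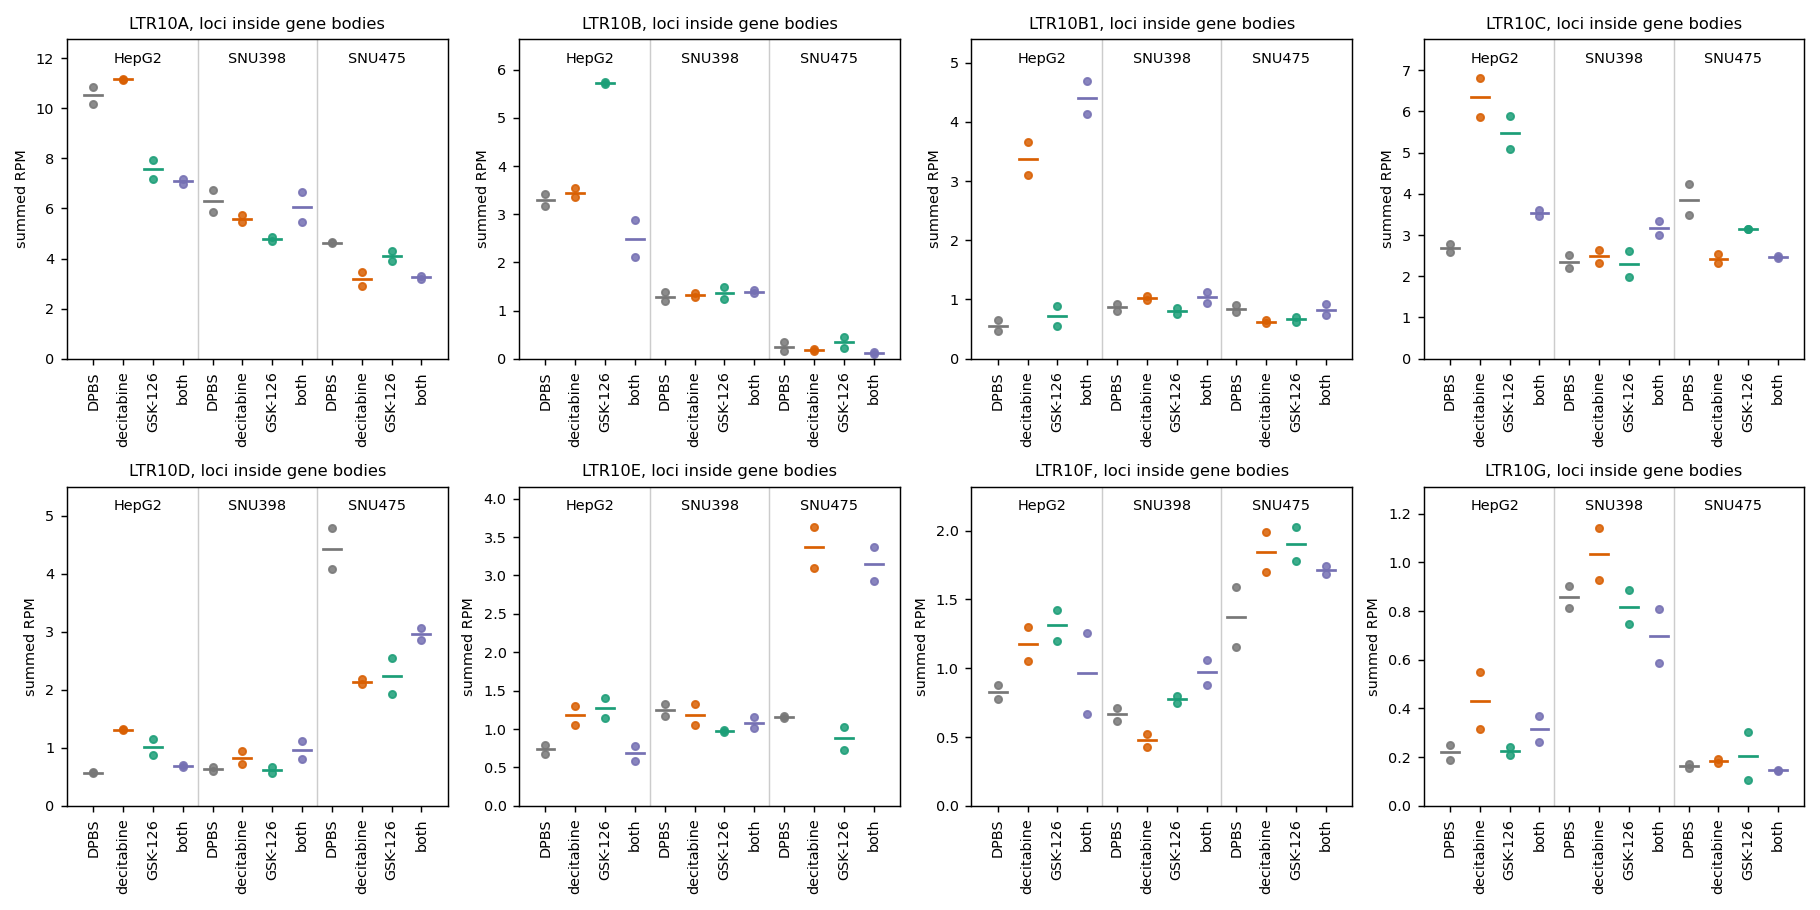
Summed RPM (vertical axis, linear) of the LTR10 loci inside gene bodies for each of the 8 subfamilies, by cell line and treatment; points are libraries A and B, the bar is their mean, and "both" stands for the combination. LTR10B1 is above 3 RPM in the 4 HepG2 libraries given decitabine and below 1.2 RPM elsewhere, and LTR10E is at 2.92 to 3.63 RPM in the 4 SNU475 libraries given decitabine.

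Much of the LTR10B1 signal inside genes in the HepG2 libraries given decitabine came from 2 copies at the ends of HERV-I proviruses, in PIAS2 and CEP85L. Whether they lie in introns or exons is not given. These 2 copies made 67.9% of the sum with the combination and 48.5% with decitabine, but 3.57% with DPBS and 1.39% with GSK-126. The other 96 LTR10B1 copies inside genes also summed to more with decitabine, 1.55 and 1.93 RPM against 0.638 and 0.44 RPM with DPBS. With the combination they gave 1.41 and 1.42 RPM, against 0.527 and 0.896 RPM with GSK-126.

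The copy in PIAS2, the gene of a SUMO ligase, lies at chr18:44457261-44457835 (575 bases) and collected 280 reads. In HepG2 it had 0 and 0.0207 RPM with DPBS, 1.21 and 1.44 RPM with decitabine, 0.0201 and 0 RPM with GSK-126, and 2.27 and 2.03 RPM with the combination. The locus was thus close to silent in the 4 HepG2 libraries without decitabine and on in all 4 with it. The combination had 144 reads and GSK-126 had 1, a ratio of 199 (95% interval 35.2 to 7930, exact Clopper-Pearson, counting error only). On the log2(RPM + 0.1) scale the locus rose by 4.36 (SE 0.22, limma adjusted p = 3.28e-14). With a pseudocount of 0.5 RPM that value was 2.38.

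The copy in CEP85L, a gene of a centrosomal protein, lies at chr6:118899243-118899612 (370 bases; 95 reads). HepG2 had 0.0192 and 0 RPM with DPBS, 0.342 and 0.292 RPM with decitabine, no read with GSK-126, and 1.01 and 0.668 RPM with the combination. With 56 reads against 0, the combination was at least 25.9-fold higher than GSK-126, taking 3 reads over the group as the floor (log2 change 3.21, SE 0.17, adjusted p = 7.73e-14, and 1.41 with a pseudocount of 0.5 RPM). Both copies were higher with the combination than with decitabine alone in each library, a contrast that shares libraries with the choice of members and was not tested. The CEP85L copy passed the minimum through its HepG2 combination libraries alone, and the PIAS2 copy through decitabine and combination libraries, so their being called is tied to how they were admitted.

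The internal viral parts of these 2 proviruses carried more reads than the LTRs and had the same on and off libraries. The PIAS2 provirus (chr18:44448156-44457835, with LTR10B1 at both ends and 7868 bases of HERVI internal sequence) had 0.02 and 0.061 RPM with DPBS in HepG2, 8.76 and 9.48 RPM with decitabine, 0.079 and 0.047 RPM with GSK-126 and 16.9 and 18.3 RPM with the combination. Reads numbered 1182 with the combination and 6 with GSK-126, a ratio of 273 (95% interval 125 to 745). Its longest internal piece rose by 6.56 on the log2 scale (SE 0.26, adjusted p = 6.49e-16). In the CEP85L provirus (chr6:118895207-118900052), 509 reads stood against 9, a ratio of 78.3 (95% interval 40.9 to 172), and all 3 of its tested internal pieces rose, by 3.76 to 4.41. The internal parts of both proviruses reached the minimum only in libraries given decitabine, singly or in the combination. Calls of their pieces are thus tied to how the pieces were admitted. The pattern was not limited to LTR10 and HERV-I sequence there: the adjacent HUERS-P3 internal part, of another retrovirus family, had group means of 0.0474 RPM with DPBS, 2.75 RPM with decitabine, 0.0733 RPM with GSK-126 and 4.22 RPM with the combination.

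**Figure D2:**
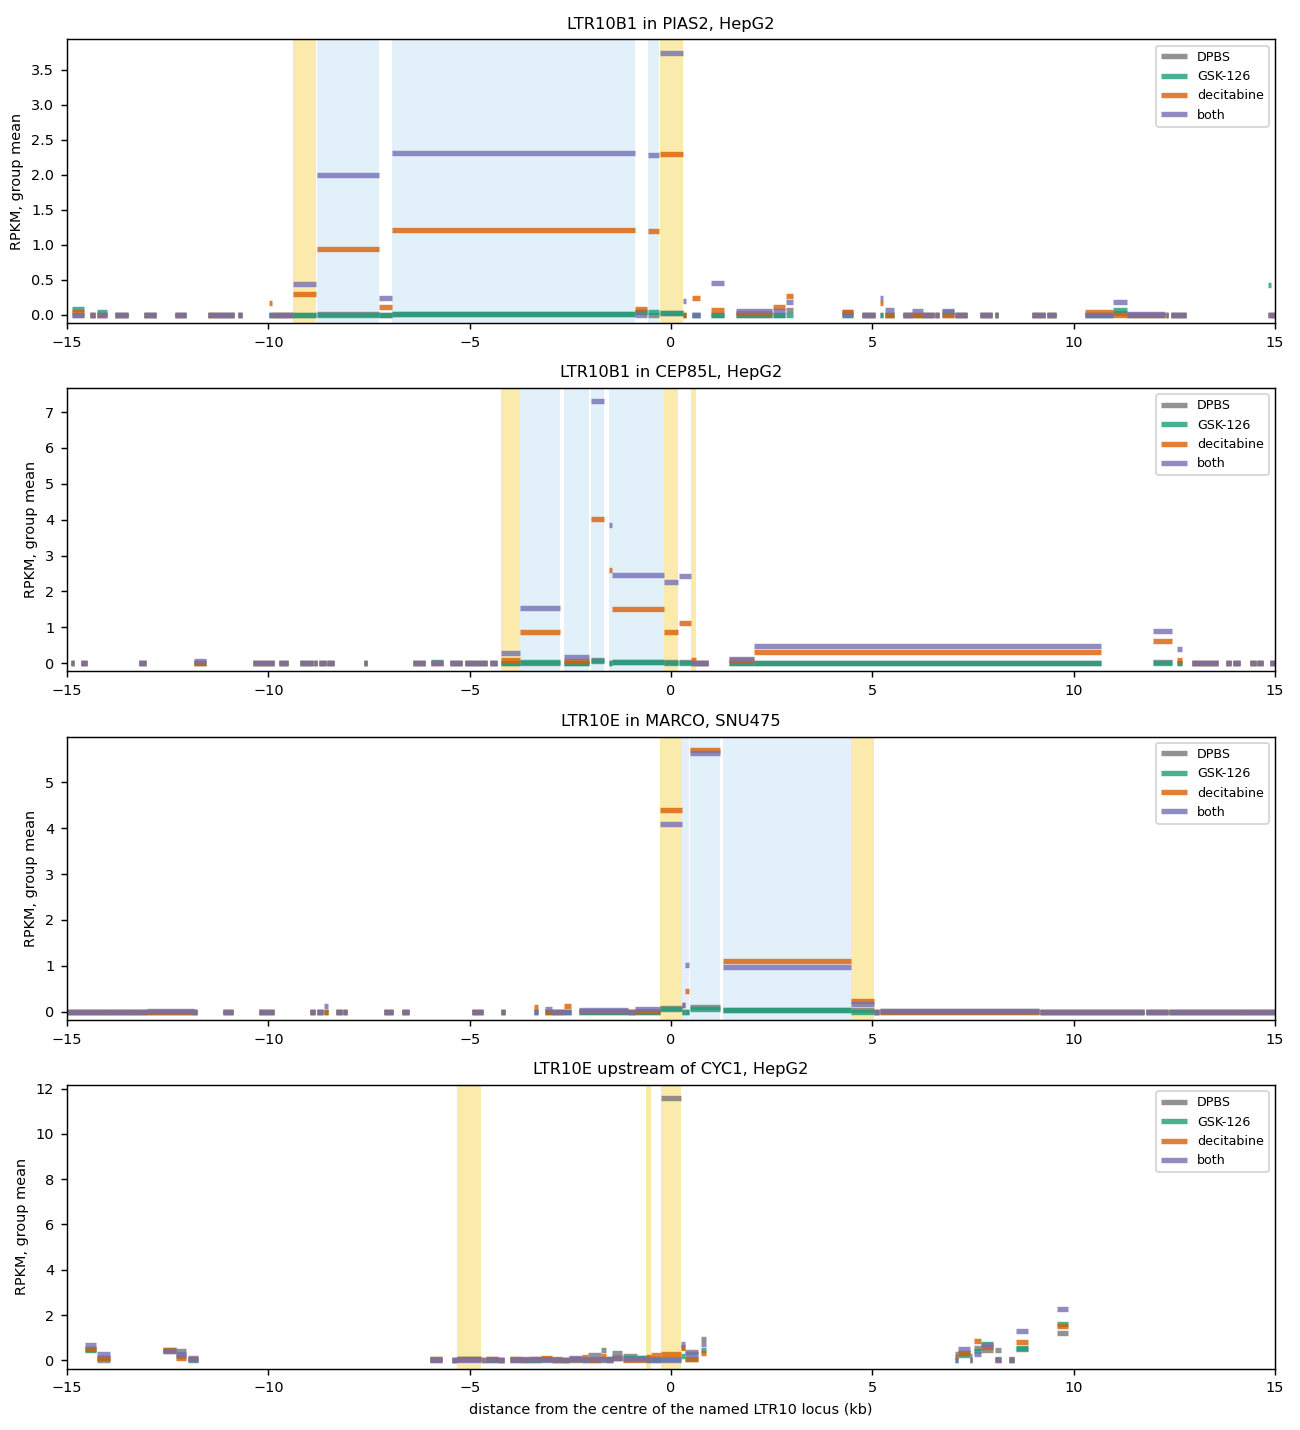
Group mean RPKM (vertical axis) of every repeat locus within 15 kb of 4 named LTR10 loci, by distance in kb from the centre of the locus (horizontal axis); LTR10 loci are in yellow and HERV-I internal parts in blue. Around the PIAS2, CEP85L and MARCO loci the signal spans the LTRs and the internal part together, at CEP85L it is also seen in repeats that are not LTR10 or HERV-I, and the LTR10E copy before CYC1 stands alone at 11.6 RPKM in HepG2 with DPBS.

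Host genes did not follow their proviruses in any 1 way. Genes were compared in RPKM scaled between libraries, and 65.7% of 19377 genes were called between the HepG2 combination and GSK-126. PIAS2 itself fell (log2 change -0.40, adjusted p = 1.5e-06), from 1.59 and 1.41 to 0.979 and 1.05 scaled RPKM. CEP85L rose (log2 change 0.35, adjusted p = 8.27e-05), from 0.232 and 0.192 to 0.356 and 0.456 scaled RPKM. SSXP10, a pseudogene within CEP85L at chr6:118910233-118910797, was at 0 in all 4 HepG2 libraries without decitabine, at 1.57 and 1.41 scaled RPKM with decitabine and at 2.32 and 2.68 scaled RPKM with the combination (combination against GSK-126 log2 change 2.58, adjusted p = 1.2e-14). SSXP10 passed the minimum for genes (0.5 RPKM in 2 libraries) through its HepG2 decitabine and combination libraries alone. Its being called is thus tied to how it was admitted.

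Another LTR10B1 provirus with this pattern lay across YPEL3 and its antisense neighbour RP11-455F5.3 (chr16:30108197-30115488). Its internal part in HepG2 had 0.058 and 0.125 RPM with DPBS, 1.32 and 0.784 RPM with decitabine, 0.183 and 0.184 RPM with GSK-126 and 1.2 and 1.28 RPM with the combination. Both internal pieces rose between GSK-126 and the combination (log2 changes 1.88 and 1.87, adjusted p = 2.07e-06 and 3.25e-05). The LTR at chr16:30108197-30108528 overlaps the annotated start of YPEL3, which rose from 1.98 and 1.81 to 5.69 and 4.85 scaled RPKM (log2 change 1.27, adjusted p = 1.08e-09). RP11-455F5.3 rose as well (log2 change 1.28, adjusted p = 1.25e-08). RP11-455F5.3 and the internal pieces passed their minimums only through HepG2 libraries given decitabine, singly or in the combination. Their being called is thus tied to how they were admitted. In SNU475, YPEL3 fell with each treatment, by 0.57, 0.54 and 0.63 on the log2 scale with decitabine, GSK-126 and the combination. Not every LTR10B1 provirus had the HepG2 pattern. That in DLG1 (chr3:196969837-196975591) had 0.328 and 0.42 internal RPM with DPBS, 1.42 and 1.37 with decitabine, 1.07 and 0.965 with GSK-126 and 0.523 and 0.524 with the combination. That at chr20:47897648-47904051, also inside genes, had 0.303 and 0.413 RPM with GSK-126 and 0.031 and 0.117 with the combination.

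Outside genes, an LTR10B1 provirus at chr6:4384117-4389882 had 0 and 0.063 RPM with DPBS in HepG2, 0.912 and 1.08 RPM with decitabine, 0.04 and 0.022 RPM with GSK-126 and 1.1 and 1.19 RPM with the combination. Its 2 tested pieces rose by 2.40 and 2.67 (adjusted p = 1.6e-09 and 4.24e-11). They passed the minimum only through HepG2 libraries given decitabine, singly or in the combination, so their being called is tied to how they were admitted. The sum of the 145 LTR10B1 loci outside genes was too low to be tested, at 0.319 and 0.538 RPM with decitabine against 0.038 and 0.021 RPM with DPBS.

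SNU475 had a weaker form of the HepG2 pattern at the same 2 LTR10B1 copies. The PIAS2 copy had no read in the 4 libraries with DPBS or GSK-126, 0.0989 and 0.0196 RPM with decitabine and 0.17 and 0.0632 RPM with the combination. It was called with decitabine (log2 change 0.63, adjusted p = 0.0396) and with the combination (log2 change 1.07, adjusted p = 0.000592; 10 reads against 0, at least 3.89-fold higher; log2 change 0.30 with a pseudocount of 0.5 RPM). The decitabine call was lost without decitabine library A or either DPBS library, with a pseudocount of 0.5 RPM and with a minimum of 0.2 RPM. The CEP85L copy was called with the combination (log2 change 0.65, adjusted p = 0.00499; 5 reads against 0, at least 1.95-fold higher), and the call was lost without combination library A and with a pseudocount of 0.5 RPM. Internal reads of the PIAS2 provirus numbered 60 with decitabine and 82 with the combination, against 1 with DPBS, ratios of 60.8 (95% interval 10.5 to 2440) and 95.8 (95% interval 16.7 to 3830). Both contrasts share the DPBS libraries.

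Albumin, which HepG2 makes in large amounts, was measured beside these values. ALB was at 0.229 to 25.2 RPKM in the SNU398 and SNU475 libraries. In the SNU475 combination libraries ALB was at 0.321% and 0.0535% of the HepG2 combination mean, while the PIAS2 and CEP85L proviruses were at 5.27% and 4.9% of theirs. With decitabine ALB was at 0.0368% and 0.00599%, and the proviruses at 6.41% and 5.11%. SNU398 had at most 0.036 RPM on the PIAS2 provirus in any library.

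The sum of LTR10B1 inside genes did not change by this test in SNU475 (0.907 and 0.787 RPM with DPBS, 0.652 and 0.598 RPM with decitabine, 0.921 and 0.735 RPM with the combination; adjusted p = 0.0929 and 0.889). An LTR10B1 provirus outside genes at chr3:120208443-120215009, with no read in HepG2, was strong in SNU475 with decitabine. Its internal part had 0.413 and 0.217 RPM with DPBS, 4.74 and 4.53 RPM with decitabine, 0.339 and 0.32 RPM with GSK-126 and 1.89 and 1.92 RPM with the combination. Its 2 pieces rose by 2.97 and 3.42 with decitabine (adjusted p = 5.02e-12 and 1.18e-12). With the combination they rose by 1.83 and 2.18 (adjusted p = 1.79e-08 and 3.24e-09). These pieces passed the minimum only through SNU475 libraries given decitabine, singly or in the combination. Their being called is thus tied to how they were admitted.

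LTR10E in HepG2 was dominated by a copy outside genes that was high only with vehicle. Its sum outside genes was 7.27 and 7.68 RPM with DPBS, 1.39 and 1.12 RPM with decitabine, 1.34 and 1.36 RPM with GSK-126 and 1.04 and 1.02 RPM with the combination. The copy lies at chr8:145148368-145148856 (489 bases; 613 reads), ending 1074 bases before the start of CYC1, which encodes cytochrome c1 of the respiratory chain. It had 5.78 and 5.54 RPM with DPBS, 0.16 and 0.112 RPM with decitabine, 0 and 0.046 RPM with GSK-126 and no read with the combination. These are 12 reads with decitabine and 564 with DPBS. The contrast that chose the members thus reflects this locus, which made 75.8% of the DPBS sum, and GSK-126 gave a value as low as decitabine. The other 173 LTR10E copies outside genes summed to 1.49 and 2.13 RPM with DPBS and to 1.23 and 1.01 RPM with decitabine.

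CYC1 moved in the same direction in HepG2, by less. It had 54.9 and 51.8 scaled RPKM with DPBS, 27.7 and 25.7 with decitabine, 20.7 and 19 with GSK-126 and 28.8 and 26.7 with the combination. Between GSK-126 and the combination, CYC1 rose by 0.48 on the log2 scale (adjusted p = 4.56e-07) while the LTR10E copy stayed at or near 0 in all 4 libraries. In SNU398, CYC1 was at 59.4 to 67.7 scaled RPKM and the copy at no more than 0.163 RPM. In SNU475, CYC1 rose with decitabine, GSK-126 and the combination (log2 changes 0.33, 0.36 and 0.29), and the copy had at most 0.0567 RPM.

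In SNU475, LTR10E inside genes was the member with the largest rise. Its sum was 1.17 and 1.14 RPM with DPBS, 3.1 and 3.63 RPM with decitabine, 1.03 and 0.73 RPM with GSK-126 and 3.37 and 2.92 RPM with the combination. It rose with decitabine (log2 change 1.22, SE 0.13, adjusted p = 2.36e-09) and with the combination (log2 change 1.14, SE 0.13, adjusted p = 7.27e-09), against the same DPBS libraries. A copy in MARCO at chr2:119705661-119706220 (560 bases; 464 reads) made 73.1% and 73% of these sums and 4.17% of the DPBS sum. The other 116 copies inside genes gave 0.77 and 1.04 RPM with decitabine and 1.13 and 1.08 RPM with DPBS.

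The MARCO copy had no read in the 16 HepG2 and SNU398 libraries. SNU475 had 0.0375 and 0.0588 RPM with DPBS, 2.33 and 2.58 RPM with decitabine, 0.0179 and 0.0532 RPM with GSK-126 and 2.44 and 2.14 RPM with the combination. The 4 libraries with decitabine were all above 2 RPM and the 4 without it below 0.06 RPM. Against 5 DPBS reads, decitabine had 252, a ratio of 51.1 (95% interval 21.6 to 159), and the combination 203, a ratio of 47.4 (95% interval 20 to 148). The log2 changes were 4.11 (SE 0.15, adjusted p = 3.57e-15) and 4.02 (SE 0.15, adjusted p = 2.05e-15), and 2.43 and 2.35 with a pseudocount of 0.5 RPM. The copy passed the minimum through only the 4 SNU475 libraries given decitabine, singly or in the combination, so its being called is tied to how it was admitted.

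The provirus that this copy ends (chr2:119705661-119710975, LTR10E at both ends, 4105 internal bases of HERVIP10F and HERVIP10FH) had 0.187 and 0.159 internal RPM with DPBS, 7.97 and 7.83 RPM with decitabine, 0.125 and 0.215 RPM with GSK-126 and 7.43 and 7.46 RPM with the combination. RP11-77A13.1, whose start in the far LTR is printed above, rose from 0.196 and 0.0749 to 5.64 and 5.66 scaled RPKM with decitabine (log2 change 3.28, SE 0.08, adjusted p = 2.43e-13). With the combination it was at 5.63 and 4.73 scaled RPKM (log2 change 3.16, SE 0.08, adjusted p = 1.95e-13). This gene passed the minimum for genes only through SNU475 libraries given decitabine, singly or in the combination. Its being called is thus tied to how it was admitted. The provirus covers most of this gene, so the same reads may be counted in both tables. MARCO, the host gene on the other strand, rose by 0.28 with decitabine (adjusted p = 0.0103), fell by 0.95 with GSK-126 (adjusted p = 2.18e-07) and was not called with the combination (log2 change 0.05, adjusted p = 0.663).

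**Figure D3:**
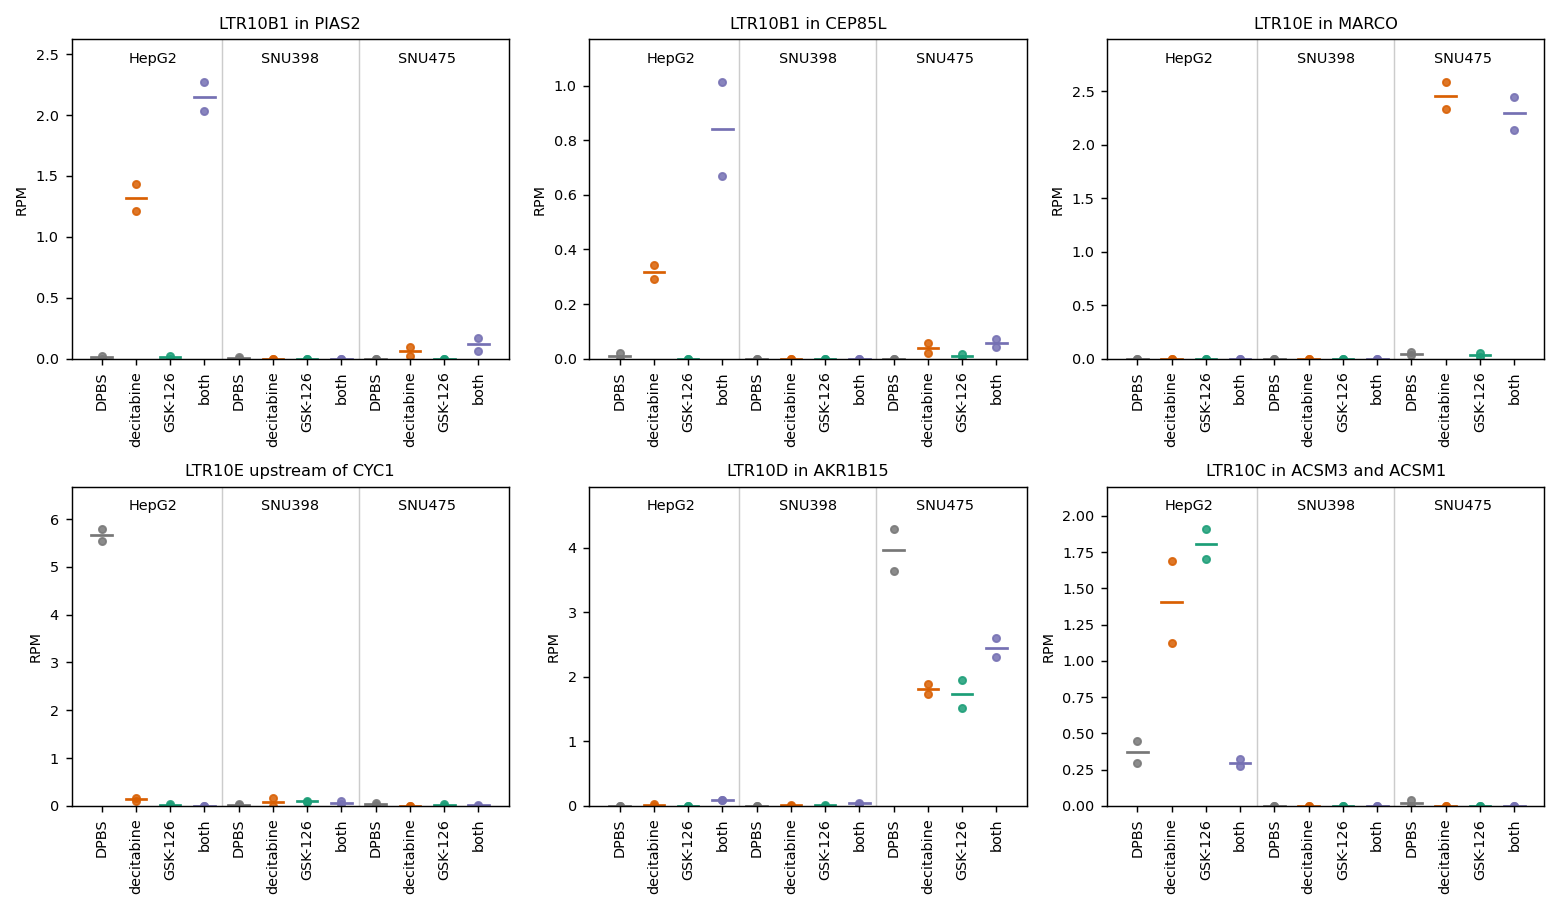
RPM (vertical axis, linear) of 6 single LTR10 loci by cell line and treatment; points are libraries A and B and "both" stands for the combination. The LTR10B1 copies in PIAS2 and CEP85L are up with decitabine and the combination in HepG2, the LTR10E copy in MARCO in SNU475, and the LTR10E copy before CYC1 is high in HepG2 with DPBS only.

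A further LTR10E provirus, outside genes at chr6:31296245-31305374, was read mainly in SNU475 and was highest there with the combination. Its internal part had 1.57 and 1.35 RPM with DPBS, 3.18 and 2.31 RPM with decitabine, 2.6 and 2.6 RPM with GSK-126 and 5.98 and 5.71 RPM with the combination. Its 2 tested pieces rose with decitabine (log2 changes 0.65 and 0.87), with GSK-126 (0.80 and 0.75) and with the combination (1.70 and 1.92). Its LTR at chr6:31296245-31296854 was too low to be tested, at 0.0756 and 0.157 RPM with DPBS and 0.412 and 0.42 RPM with the combination.

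The LTR10E copies inside genes summed to 0.676 and 0.794 RPM with DPBS in HepG2, 1.3 and 1.05 RPM with decitabine, 1.4 and 1.15 RPM with GSK-126 and 0.583 and 0.784 RPM with the combination. The LTR10E element in SGK223 (chr8:8216108-8220786) had 1.14 and 0.941 internal RPM with DPBS in HepG2, 2.9 and 3.43 RPM with decitabine, 3.14 and 3.36 RPM with GSK-126 and 2.21 and 2.41 RPM with the combination. Both were thus highest with a single drug. At the locus chr7:75699774-75700092, 695 bases from the pseudogene AC005077.14, SNU475 had 0.245 and 0.216 RPM with DPBS, 0.089 and 0.142 RPM with GSK-126 and 0.0242 and 0.0839 RPM with the combination. It fell with the combination (log2 change -1.13, adjusted p = 0.000275), while the GSK-126 call (log2 change -0.63, adjusted p = 0.0467) was lost under every alternative tried for it. AC005077.14 fell with both as well (log2 change -0.67 in each). In HepG2 the same locus was at 0.552 to 1.05 RPM in all 8 libraries.

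LTR10D in SNU475 was carried by a copy in AKR1B15, the gene of an aldo-keto reductase, and fell under every treatment. Its sum inside genes was 4.08 and 4.79 RPM with DPBS, 2.1 and 2.18 RPM with decitabine, 2.54 and 1.92 RPM with GSK-126 and 2.86 and 3.07 RPM with the combination. The log2 changes were -0.90 (adjusted p = 6.93e-07), -0.86 (adjusted p = 5.22e-06) and -0.51 (adjusted p = 0.00113). The copy at chr7:134249590-134250190 (601 bases; 1024 reads) had 3.64 and 4.28 RPM with DPBS, 1.74 and 1.89 RPM with decitabine, 1.96 and 1.51 RPM with GSK-126 and 2.3 and 2.61 RPM with the combination. Decitabine gave 0.459 of the DPBS level (95% interval 0.384 to 0.547). Its log2 changes were -1.08 (adjusted p = 0.000618), -1.15 (adjusted p = 0.000511) and -0.67 (adjusted p = 0.0204), the last lost without combination library A or DPBS library B and with a pseudocount of 0.05 RPM. AKR1B15 itself fell by 0.70, 0.74 and 0.64 on the log2 scale, from 4.66 and 4.96 to 2.57 to 3.02 scaled RPKM. In HepG2 the copy was read almost only with the combination, at 0.092 and 0.0871 RPM, against no read with GSK-126 (log2 change 0.92, adjusted p = 0.0011), a call lost with a pseudocount of 0.5 RPM.

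LTR10A was carried in every line by the copy in FOXRED2, a gene of an endoplasmic reticulum protein. The copy (chr22:36883200-36883685, 486 bases; 5654 reads) spans one end of the gene body, so its reads may be those of the host transcript. HepG2 had 8.37 and 8.73 RPM with DPBS, 7.71 and 7.65 RPM with decitabine, 4.5 and 4.97 RPM with GSK-126 and 4.75 and 4.71 RPM with the combination. SNU475 had 3.72 and 3.59 RPM with DPBS, 2.51 and 2.68 RPM with decitabine, 2.97 and 3.22 RPM with GSK-126 and 2.49 and 2.71 RPM with the combination, a fall with decitabine and the combination (log2 changes -0.48 and -0.48, adjusted p = 0.00133 and 0.00105). FOXRED2 fell in the same 2 comparisons (log2 changes -0.23 and -0.33). It did not follow the copy everywhere. HepG2 had 16.7 and 16.2 scaled RPKM of FOXRED2 with DPBS, 20.1 and 20.1 with decitabine, 12.4 and 12.6 with GSK-126 and 15.6 and 15.2 with the combination. SNU398 had 6.21 and 5.82 with DPBS and 6.26 and 6.72 with GSK-126. In SNU475 the LTR10A sum inside genes fell with decitabine and the combination (log2 changes -0.48 and -0.45, adjusted p = 3.73e-05 and 7.38e-05).

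The next LTR10A copy, in TACC3 (a gene of a spindle protein) at chr4:1740261-1740753, did not follow its host. HepG2 had 0.754 and 0.984 RPM with DPBS and 1.13 to 1.7 RPM in the 6 treated libraries. TACC3 there had 9.24 and 9.06 scaled RPKM with DPBS, 9.51 and 9.26 with decitabine, 4.82 and 4.76 with GSK-126 and 9.74 and 9.12 with the combination. In SNU475 the copy fell with decitabine, from 0.132 and 0.0592 RPM to 0 and 0.0192 RPM (log2 change -0.82, adjusted p = 0.0159), while TACC3 rose from 13.7 and 14.2 to 23.4 and 22.8 scaled RPKM (log2 change 0.71, adjusted p = 1.43e-09). The fall was lost without DPBS library A or decitabine library A and with a pseudocount of 0.5 RPM.

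LTR10C, the largest subfamily, was spread over many copies. Its sum inside HepG2 genes was 2.59 and 2.78 RPM with DPBS, 6.8 and 5.88 RPM with decitabine, 5.88 and 5.08 RPM with GSK-126 and 3.47 and 3.6 RPM with the combination, so the combination was below either drug alone. A copy in ACSM3 and ACSM1, genes of acyl-CoA synthetases that overlap there (chr16:20705164-20705752, 589 bases), was likewise lower with the combination than with either drug alone. It had 0.445 and 0.293 RPM with DPBS, 1.69 and 1.12 RPM with decitabine, 1.91 and 1.7 RPM with GSK-126 and 0.276 and 0.32 RPM with the combination (combination against GSK-126 log2 change -2.26, SE 0.20, adjusted p = 1.29e-09). ACSM3 fell in that comparison (log2 change -0.64, adjusted p = 7.15e-09) and ACSM1 rose (log2 change 0.50, adjusted p = 1.48e-06). In SNU475 the LTR10C sum fell with decitabine (log2 change -0.57, adjusted p = 5.54e-05) and the combination (log2 change -0.55, adjusted p = 6.84e-05).

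Proviruses with LTR10C ends were higher with decitabine in 3 genes. In ANKRD45 (chr1:173606390-173612174) the internal part in HepG2 had 0.23 and 0.272 RPM with DPBS, 2.49 and 2.26 RPM with decitabine, 0.161 and 0.23 RPM with GSK-126 and 3.68 and 3.89 RPM with the combination (254 reads against 18 with GSK-126, a ratio of 19.5, 95% interval 12.1 to 33.5). In METAP1, the gene of a methionine aminopeptidase (chr4:99934564-99942996), SNU475 had 0.057 and 0.061 RPM with DPBS, 2.06 and 1.77 RPM with decitabine, 0.269 and 0.302 RPM with GSK-126 and 2.08 and 2.22 RPM with the combination. Its internal piece rose with decitabine (log2 change 3.83, adjusted p = 1.88e-11), GSK-126 (1.38, adjusted p = 0.000237) and the combination (3.93, adjusted p = 1.07e-11). HepG2 had 0.369 and 0.631 RPM there with decitabine, 0.892 and 0.712 RPM with GSK-126 and 0.921 and 1.02 RPM with the combination, against 0.021 and 0.043 RPM with DPBS.

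The provirus in PVRL3-AS1 (chr3:110683324-110689151, LTR10C at both ends) had the highest mean level of internal reads of the elements over the 24 libraries. In SNU475 its internal part was already at 10.9 and 10.3 RPM with DPBS and at 10.4 to 12.5 RPM in the treated libraries. In HepG2 it had 0.367 and 0.271 RPM with DPBS, 2.67 and 2.71 RPM with decitabine, 2.53 and 2.42 RPM with GSK-126 and 5 and 5.4 RPM with the combination. Both pieces rose between GSK-126 and the combination (log2 changes 0.60 and 1.80, adjusted p = 0.022 and 6.38e-09). In SNU475 they moved apart with the combination, one falling by 0.60 (adjusted p = 0.0345) and the other rising by 1.20 (adjusted p = 1.22e-05). The antisense gene PVRL3-AS1 rose in SNU475 with decitabine, GSK-126 and the combination (log2 changes 0.98, 0.68 and 1.02) and in HepG2 between GSK-126 and the combination (log2 change 0.89, adjusted p = 7.69e-07).

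**Figure D4:**
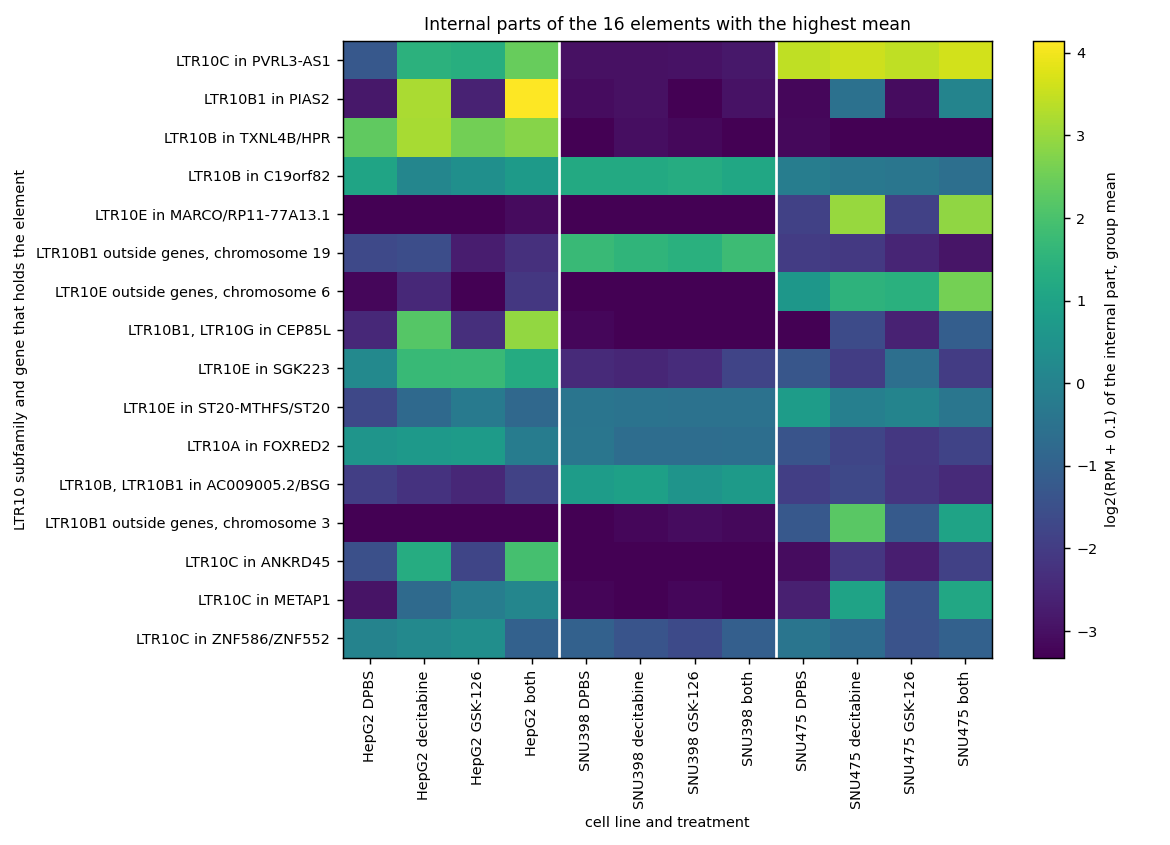
Heat map of log2(RPM + 0.1), as group means of 2 libraries, for the internal parts of HERV-I elements (rows) in the 12 groups (columns). Shown are the 16 elements joined with LTR10 copies that had the highest mean level. The PIAS2 and CEP85L elements are brightest in HepG2 with decitabine or the combination, the MARCO element in SNU475 with decitabine or the combination, and the PVRL3-AS1 element in all SNU475 groups.

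Of the copies above the minimum, 1 was LTR10F, 3 were LTR10B and 1 was LTR10G. LTR10F in SNU475 rested on a copy in TXNRD1, the gene of thioredoxin reductase (chr12:104665848-104666292), at 0.642 and 0.805 RPM with DPBS, 1.07 and 1.47 RPM with decitabine, 0.783 and 1.16 RPM with GSK-126 and 1.19 and 1.24 RPM with the combination. This copy rose with decitabine (log2 change 0.72, adjusted p = 0.018) and the combination (log2 change 0.68, adjusted p = 0.0211). Both calls were lost without DPBS library A, the decitabine call also without decitabine library B and the combination call without either combination library. Both were also lost with a pseudocount of 0.05 RPM and with a minimum of 0.2 RPM. TXNRD1 rose in all 3 comparisons (log2 changes 0.32, 0.37 and 0.30). The LTR10F sum was called with decitabine (log2 change 0.33, adjusted p = 0.0492) and GSK-126 (log2 change 0.37, adjusted p = 0.0386), and both calls were lost without DPBS library A. The decitabine call was also lost without decitabine library B, and the GSK-126 call without either GSK-126 library, and both were lost with a pseudocount of 0.1 RPM and with no minimum.

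LTR10B was carried in HepG2 by a copy in TBL1Y (chrY:6787487-6787985), at 2.22 and 2.62 RPM with DPBS, 1.76 and 2.02 RPM with decitabine, 4.58 and 4.69 RPM with GSK-126 and 1.1 and 1.95 RPM with the combination. It fell between GSK-126 and the combination (log2 change -1.59, adjusted p = 9.43e-06), as did TBL1Y itself (log2 change -0.99, adjusted p = 7.91e-10). A copy over the annotated start of BSG (basigin, a transporter chaperone) at chr19:571083-571344 was read mainly in SNU398, at 0.316 to 0.742 RPM. In HepG2, where BSG was at 78.2 to 100.3 scaled RPKM, that copy was at 0 to 0.104 RPM, and its call between GSK-126 and the combination (log2 change -0.52, adjusted p = 0.0491) was lost without GSK-126 library B or combination library B, with a pseudocount of 0.5 RPM and with a minimum of 0.2 RPM. The LTR10G copy in ZNF589 (chr3:48314269-48314788) had 0.431 to 0.814 RPM in SNU398 and at most 0.0712 RPM in SNU475. There it was called lower with the combination (log2 change -0.66, adjusted p = 0.0375; 0.0567 and 0.0588 RPM with DPBS, no read with the combination), a call lost without any 1 of these 4 libraries, with a pseudocount of 0.5 RPM and with a minimum of 0.2 RPM.

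SNU398 had the smallest movements. With decitabine, limma called 0 of 7 LTR10 sums inside genes, where 11% of all subfamilies were called, and 0 of 14 loci, where 5.46% of 18234 repeat loci were called. At an unadjusted p below 0.05 there were 0 sums and 1 locus. Outside genes 20.3% of subfamilies were called, and LTR10E was not (0 at an unadjusted p below 0.05). GSK-126 lowered the LTR10A sum (log2 change -0.36, adjusted p = 0.00282) where 37% of sums inside genes were called. Among loci, of which 17.7% were called, the FOXRED2 copy fell, from 6.2 and 5.01 to 4.09 and 4.13 RPM (log2 change -0.43, adjusted p = 0.00418). Both were lost without DPBS library A or with gene-based scaling.

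The GSK-126 comparison in SNU398 depended on the scaling. Gene-based factors moved the median log2 change of all subfamilies by 0.15 inside genes and 0.13 outside, and turned the share of calls that were higher from 31.7% to 74.5% inside genes and from 67.3% to 88.7% outside. For single loci that share went from 41.4% to 61.1%. The TBL1Y copy was called higher in SNU398 with GSK-126 (log2 change 0.76, adjusted p = 0.0312) on at most 0.118 RPM, and the call was lost without GSK-126 library A or either DPBS library, with a pseudocount of 0.5 RPM and with a minimum of 0.2 RPM. Outside genes 26.2% of subfamilies were called and LTR10E was not (0 at an unadjusted p below 0.05 with limma).

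The SNU398 combination raised 2 LTR10 sums inside genes, where 47.8% of subfamilies were called and 92.3% of those calls were higher. LTR10C rose from 2.52 and 2.19 to 3 and 3.33 RPM (log2 change 0.36, adjusted p = 0.00984) and LTR10D from 0.596 and 0.672 to 0.808 and 1.12 RPM (log2 change 0.36, adjusted p = 0.027). Each was lost without DPBS library B or combination library B, and LTR10D also without DPBS library A. No LTR10 locus was called with limma (1 at an unadjusted p below 0.05), where 12.9% of loci were, nor was LTR10E outside genes (0 at an unadjusted p below 0.05), where 49.7% of subfamilies were. Between the combination and decitabine alone, LTR10F rose (log2 change 0.59, adjusted p = 0.00223) and LTR10C rose (log2 change 0.30, adjusted p = 0.039), the latter lost without decitabine library B or either combination library. There 38.5% of sums inside and 21.7% of sums outside genes were called, and LTR10E outside was not (0 at an unadjusted p below 0.05 with limma).

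In SNU475 most calls over all repeat subfamilies were lower. With decitabine 70% of sums inside genes were called, 8.93% of those calls being higher, and the median log2 change was -0.32. The 7 LTR10 sums had a median of -0.26, with LTR10E and LTR10F called higher and LTR10A, LTR10C and LTR10D called lower. With GSK-126 53.1% were called, and LTR10F was called higher and LTR10D lower. With the combination 74.2% were called, and LTR10E was called higher and LTR10A, LTR10C and LTR10D lower. The LTR10E sum outside genes was called lower with GSK-126 only (0.831 and 0.786 against 0.428 and 0.641 RPM, log2 change -0.35, adjusted p = 0.035), where 60% of sums were called. That call was lost without GSK-126 library A or either DPBS library, in a fit of the 8 SNU475 libraries and with gene-based scaling. With decitabine and the combination, 65.8% and 74.5% of sums outside genes were called and LTR10E was not (0 at an unadjusted p below 0.05 with limma in each).

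Between the SNU475 combination and decitabine alone, limma called none of the LTR10 sums (1 inside and 0 outside genes at an unadjusted p below 0.05), where 3.44% of sums inside and 4.79% outside genes were called. Of the 14 LTR10 loci, 3 rose and 3 fell with decitabine, against 22.9% of all loci called. With GSK-126 none rose and 2 fell, against 15.7%, and with the combination 4 rose and 4 fell, against 28.1%. These are 6, 2 and 8 of 14 members, and without DPBS library A the first was 3, without combination library A the last was 4. In HepG2, between GSK-126 and the combination, 3 LTR10 loci rose and 3 fell, against 42.3% of all loci called. The PIAS2 and CEP85L copies, which rose there, passed the minimum only through HepG2 libraries given decitabine, singly or in the combination. The same holds in SNU475 for the MARCO copy, which rose with decitabine and the combination. These counts are thus tied in part to how the members were admitted.

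HERV-I internal parts, the retroviral bodies between LTR10 copies, were summed in the same way. HERVI inside genes had 8.16 and 9.43 RPM with DPBS in HepG2, 28.7 and 30.5 RPM with decitabine, 14.1 and 15 RPM with GSK-126 and 39.4 and 41.6 RPM with the combination (combination against GSK-126 log2 change 1.45, adjusted p = 1.91e-17). The PIAS2 provirus described above made 16.9 and 18.3 RPM of the combination sum and 0.079 and 0.047 RPM of the GSK-126 sum. HERVIP10F inside genes rose between GSK-126 and the combination in HepG2 (log2 change 1.84, adjusted p = 2.74e-17) and in SNU475 with decitabine (1.33, adjusted p = 5.16e-13) and the combination (1.33, adjusted p = 2.3e-13). In SNU475 this sum went from 2.42 and 2.32 RPM with DPBS to 6.76 and 6.69 RPM with decitabine. The MARCO provirus, made of HERVIP10F and HERVIP10FH pieces, went there from 0.187 and 0.159 RPM to 7.97 and 7.83 RPM. HERVI outside genes rose in SNU475 from 2.07 and 1.67 RPM to 8.09 and 7.08 RPM with decitabine (log2 change 1.77, adjusted p = 3.9e-17), and to 8.06 and 7.94 RPM with the combination (1.85, adjusted p = 4.82e-18). Most of these sums came from 2 proviruses described above. That at chr3:120208443-120215009 made 4.74 and 4.53 RPM with decitabine and 1.89 and 1.92 RPM with the combination. That at chr6:31296245-31305374 made 3.18 and 2.31 RPM and 5.98 and 5.71 RPM. In SNU398 the HERVI sum outside genes rose by 0.48 with decitabine (adjusted p = 0.00801) and by 0.64 with the combination (adjusted p = 8.31e-05). HERVIP10F outside genes fell in SNU475, by 0.40 with decitabine and 0.52 with the combination. HERVIP10FH inside genes was not called in HepG2 (log2 change 0.13, adjusted p = 0.129) or with the SNU475 combination (0.09, adjusted p = 0.287), rose with SNU475 decitabine (0.22, adjusted p = 0.0119) and fell with SNU475 GSK-126 (-0.45, adjusted p = 1.6e-05). Outside genes HERVIP10FH fell in SNU475 with decitabine, GSK-126 and the combination (log2 changes -0.72, -0.64 and -0.60) and rose in HepG2 (0.74, adjusted p = 2.44e-06).

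Effects were also compared between SNU475 and SNU398, a comparison added after the values were seen. Harvest day differed between these lines and cannot be told apart from the line. The effect on LTR10 sums inside genes differed for 5 of 7 subfamilies with decitabine (60.1% of all subfamilies), 1 with GSK-126 (27%) and 4 with the combination (76.5%). For single loci it differed for 4 of 14 with decitabine (14.4% of all loci), 1 with GSK-126 (16%) and 5 with the combination (25.7%). The largest differences were those of the LTR10E copy in MARCO, 4.11 with decitabine and 4.02 with the combination.

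Genes of the AP-1 factors that bind LTR10 copies, and of proteins that silence LTRs, were taken from 2 lists. Of 9 AP-1 genes, 8 rose and FOSB fell between GSK-126 and the combination in HepG2, where 65.7% of all genes were called. In the other lines the counts differed by treatment. With GSK-126, 8 rose and none fell in SNU398 (median log2 change 1.43), where 52.4% of all genes were called and FOS went from 3.41 and 3.31 to 51.7 and 50.2 scaled RPKM. With decitabine, 6 fell and 3 rose in SNU475, where 51.4% of all genes were called, FOS went from 72.2 and 73.8 to 18 and 18.1 (log2 change -1.99, adjusted p = 2.43e-13) and FOSL1 from 25.4 and 29.4 to 59.5 and 59.1 (log2 change 1.10, adjusted p = 4.6e-08). In SNU475, 4 fell and 2 rose with GSK-126 (50% of all genes were called) and 6 fell and 2 rose with the combination (54.9%). In SNU398, 6 rose and 1 fell with decitabine (38.8%) and likewise with the combination (47.3%).

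Of 11 genes that silence LTRs, 6 rose and 4 fell between GSK-126 and the combination in HepG2, against 65.7% of all genes called. The de novo methyltransferase gene DNMT3B went from 2.09 and 1.97 to 5.24 and 5.57 scaled RPKM (log2 change 1.22, adjusted p = 3.41e-12) and UHRF1, which guides maintenance methylation, from 5.34 and 5.43 to 11.4 and 10.6 (log2 change 0.97, adjusted p = 6.58e-13). ATRX, a chromatin remodeller that acts with DAXX at repeats, fell (log2 change -0.95, adjusted p = 8.59e-11), and TRIM28 was not called (log2 change 0.08, adjusted p = 0.0877). In SNU475, 6 rose and 5 fell with decitabine (51.4% of all genes called), UHRF1 rising by 0.74 and ATRX falling by 0.92, and 6 rose and 5 fell with the combination (54.9%). With GSK-126, 4 rose and 6 fell there (50%). In SNU398, 4 rose and 4 fell with decitabine (38.8%), 3 rose and 6 fell with GSK-126 (52.4%), and 3 rose and 7 fell with the combination (47.3%).

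Of the 12 LTR10 loci that overlap an annotated gene start, 9 had a read in any library. The copy at the NOS3 start had none, which allows at most 3 reads over the 24 libraries. NOS3 was at 0.721 and 0.736 scaled RPKM with DPBS in HepG2, 0.971 and 1.06 with decitabine, 0.515 and 0.535 with GSK-126 and 1.79 and 1.42 with the combination, and it rose between the last 2 (log2 change 1.03, adjusted p = 2.89e-09). The copies at the starts of BSG and YPEL3 had 240 and 107 reads, and those at RP11-77A13.1, C9orf131 and PHAX had 24, 23 and 21. Whether a read began in the LTR or ran into it cannot be told from these counts.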

How the data were processed

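The deposited tables hold RPKM for genes and for repeat loci in the 24 libraries, computed by the authors. Per the submitters' processing notes, HISAT2, featureCounts and build hg19 were used; the sources used here give no version, counting strand or handling of multimapping. Value steps gave whole reads for 100% of the values checked within 0.15 reads, hence depth and RPM. Simple repeats, low-complexity sequence and structural RNA repeats (405 names) were left out, leaving 990 names. Group means were fitted over all 24 libraries (12 residual degrees of freedom) with limma 3.58.1 in R 4.3.3 (trend and robust, two-sided, Benjamini-Hochberg over all features of a comparison, called below 0.05). Sums used log2(RPM + 0.5) and at least 1 RPM in 2 libraries, loci log2(RPM + 0.1) and at least 0.5 RPM in 2 libraries. Genes used log2(scaled RPKM + 0.5) and at least 0.5 RPKM in 2 libraries, with median-of-ratios factors (0.847 to 1.16) from 8211 genes. Fits were tested on simulated data.

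Loci were named as the highest per subfamily and class at 0.1 RPM or more (5 each for LTR10B1 and LTR10E) and, per tested comparison, the 3 highest and 3 lowest called without overlap of libraries; genes are their hosts or nearest neighbours. Elements joined HERV-I internal parts within 3000 bases of each other and LTR10 copies within 1000 bases of them; elements named in the text were chosen after their values were seen. The members and lists were chosen with earlier results of these data known. Alternatives were other pseudocounts and minimums, gene-based scaling, replicate letter as a block, the 8 libraries of a line, loci far from genes and each library left out. Intervals of read ratios are 95% and cover counting error only. One further gene list was tested and is not reported here.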

Additional observations from a re-analysis of the deposited data

Results flagged for a closer look

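Among sums inside genes and single loci, the effect of a treatment differed between SNU475 and SNU398 for 20 LTR10 values. The test was an interaction contrast in limma with Benjamini-Hochberg adjustment. Values are SNU475 minus SNU398 on the log2 scale. RNA was taken on different days from these lines, so line and harvest day cannot be told apart. Among sums inside genes, the decitabine effect differed for LTR10A by -0.33 (adjusted p = 0.034), LTR10C by -0.63 (adjusted p = 0.0014), LTR10D by -1.13 (adjusted p = 9.5e-06), LTR10E by 1.27 (adjusted p = 1.6e-06) and LTR10F by 0.59 (adjusted p = 0.018). The GSK-126 effect differed for LTR10D by -0.84 (adjusted p = 0.0011). The combination effect differed for LTR10A by -0.40 (adjusted p = 0.0078), LTR10C by -0.91 (adjusted p = 8.2e-06), LTR10D by -0.87 (adjusted p = 0.00015) and LTR10E by 1.28 (adjusted p = 5.8e-07). Outside genes, the GSK-126 effect on the LTR10E sum differed as well, by -0.59 (adjusted p = 0.0133 by the same limma contrast). That difference is not among the 20 values and was not run under the alternatives.

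Among single loci, the LTR10E copy in MARCO differed most, by 4.11 with decitabine (adjusted p = 2.2e-12) and 4.02 with the combination (adjusted p = 2.5e-12). The LTR10D copy in AKR1B15 differed by -1.20 with decitabine (adjusted p = 0.0083), -1.28 with GSK-126 (adjusted p = 0.0042) and -1.17 with the combination (adjusted p = 0.0058). Decitabine effects differed for the LTR10G copy in ZNF589 by -1.06 (adjusted p = 0.032) and the LTR10A copy in TACC3 by -1.13 (adjusted p = 0.027). With decitabine the ZNF589 copy was called in neither line alone (log2 change 0.53 in SNU398 and -0.53 in SNU475). Combination effects differed for the LTR10B1 copies in CEP85L by 0.65 (adjusted p = 0.047) and PIAS2 by 1.18 (adjusted p = 0.0061), and for the LTR10E copy near AC005077.14 by -1.13 (adjusted p = 0.0073). In SNU475 the CEP85L copy had 5 reads with the combination and 0 with DPBS, and the PIAS2 copy 10 and 0. In SNU398 the MARCO copy had no read and the AKR1B15 copy at most 0.0463 RPM, so these differences are the SNU475 effects almost alone. The MARCO copy passed the minimum only through SNU475 libraries given decitabine, singly or in the combination.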

How the results depend on the processing

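Over all alternatives, 1525 tested values of LTR10 sums and loci kept their side of the threshold, 81 lost and 20 gained a call. No value called in the main fit or in the alternative changed direction. Values called in neither were not checked for direction. Of the differences between SNU475 and SNU398 in sums inside genes and at loci, 648 kept their side of the threshold, 33 lost and 12 gained a call. The HepG2 LTR10B1 rise inside genes stayed called under each alternative run, at 1.66 to 2.49 on the log2 scale, and the SNU475 LTR10E rise at 1.02 to 1.46 with decitabine and 0.94 to 1.37 with the combination. Counts of called members that moved follow; the cause was not tested. With no minimum, sums outside genes gave 4 calls in the HepG2 combination against GSK-126, 1 in the SNU398 combination, and 3 each in SNU475 decitabine and combination, in place of 0. The SNU475 GSK-126 call outside genes went from 1 to 0 with gene-based scaling, with the 8 libraries of the line, at least 5 kb from genes and without the top locus. With loci inside and outside summed together, calls were 6 in HepG2, 1, 2 and 3 in SNU398 (GSK-126, combination, combination against decitabine) and 5, 3 and 5 in SNU475 (decitabine, GSK-126, combination). Inside genes, SNU475 GSK-126 gave 1 in place of 2 with a pseudocount of 0.1 RPM or no minimum, SNU398 GSK-126 gave 0 in place of 1 with gene-based scaling, and the SNU398 combination against DPBS or decitabine gave 1 in place of 2 with the 8 libraries of the line. Among loci, the SNU398 combination gave 1 in place of 0 with a pseudocount of 0.05 RPM or a minimum of 0.2 RPM. SNU475 GSK-126 gave 1 in place of 2 with pseudocounts of 0.05 or 0.5 RPM, gene-based scaling or the 8 libraries of the line. The 0.2 RPM minimum, which tests more loci, gave 14 in place of 6 in HepG2 and 4 in place of 2 for SNU398 GSK-126. The latter was 1 with gene-based scaling or the 8 libraries of the line, and the SNU475 combination then gave 4 in place of 8.

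With each library left out in turn, calls outside genes ranged from 0 to 1 for SNU398 GSK-126, the SNU398 combination and SNU475 GSK-126. Inside genes they ranged from 0 to 1 for SNU398 GSK-126, 0 to 2 for the SNU398 combination, 1 to 2 for the SNU398 combination against decitabine and 1 to 3 for SNU475 GSK-126. For loci they ranged from 0 to 1 for SNU398 decitabine, 0 to 2 for SNU398 GSK-126, 3 to 5 for SNU475 decitabine, 1 to 1 for SNU475 GSK-126 and 4 to 7 for the SNU475 combination. Without gene-based scaling, SETDB1 and REV1 reversed for SNU398 GSK-126, at -0.157 and -0.05. HepG2 values with no test moved by more than the spread in 106 cases and by less in 510.

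Over the 66 pairs of groups, deviations of the replicate letters from group means correlated with a median of 0.01 outside genes, 0.02 inside genes and 0.01 over loci. The highest values were 0.16, 0.2 and 0.05, with 4, 18 and 0 pairs above 0.1. Pairs within a line were not taken apart from pairs between lines, so pairing of the letters within a line cannot be decided from these values. With the letter as a replicate block, SNU475 GSK-126 loci gave 1 call in place of 2, the LTR10F sum was lost for SNU475 decitabine (adjusted p = 0.0511) and the CEP85L copy was gained there (adjusted p = 0.0477). Depth limits single loci most: 14 of 2201 could be tested.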

Other observations

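Several HERV-I elements joined with LTR10 copies were read mainly in a single line, with smaller differences between treatments than the PIAS2 and MARCO proviruses. The LTR10B element in TXNL4B and HPR (chr16:72098168-72107275) had 4.39 and 5.44 internal RPM with DPBS in HepG2, 8.51 and 9.19 RPM with decitabine, 5.69 and 6 RPM with GSK-126 and 6.99 and 6.65 RPM with the combination. An LTR10B1 element outside genes at chr19:560172-565699 had 2.42 to 3.57 RPM in the 8 SNU398 libraries. An LTR10G element outside genes at chr3:54104282-54110546 was lower in treated SNU475 libraries, with 1.72 and 2.04 RPM for DPBS, 0.652 and 0.906 RPM for decitabine, 1.12 and 1.1 RPM for GSK-126 and 0.653 and 0.966 RPM for the combination. Unlike these, the LTR10B element in C19orf82 (chr19:9738586-9745485) was read in all 3 lines, at 0.533 to 2.57 RPM. All of these elements were chosen after their values were seen.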
